A study of Mus musculus with 6 samples.

Results

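The genes described here are the 44 genes of a fixed list for mitosis and chromosome segregation, of 47643 genes in the count table and 11877 genes tested. The list holds mitotic cyclins and kinases, checkpoint proteins, kinetochore proteins, spindle motors, condensin subunits, and cytokinesis proteins, and its rule is gene function. All 44 genes were found in the table and had at least 10 reads over the 6 samples, from 339 reads for Anln to 21147 reads for Top2a. CD4+ T cells were sorted as Nr4a3-Blue+Red+ from spleens of Tg4 Tiger Nr4a3-Tocky mice, in 3 groups of 2 samples that differed in the antibody given (isotype, anti-PD1, or anti-Lag3). Every mouse carried a transgenic T cell receptor for a myelin basic protein peptide (Tg4), an Il10-GFP reporter (Tiger), and a fluorescent Timer protein driven by Nr4a3 (Tocky), whose blue form turns red as it matures, so that blue and red together mark cells that signaled both recently and before. All groups, the isotype group included, received 80 μg of [4Y] MBP peptide under the skin, 800 μg of antibody 24 h later, and 8 μg of the same peptide 30 min after the antibody, and spleens were taken 4 h after that. The isotype control was a pool of rat IgG1 and rat IgG2a. The study's methods describe cells of biological replicate mice stained separately before the sort, while the labels do not name the mouse or mice behind a sample. The p-values measure the spread between these samples, with each gene's spread estimated partly from all genes tested. The gate required blue Timer protein, so that cells without it were not in the samples. The paper holds that nearly all cells with both colors at this time had responded to both peptide doses.

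An activated T cell divides within days of meeting antigen, and its mitotic genes are transcribed together late in the cell cycle. Cyclin B and Cdk1 drive entry into mitosis, condensin compacts the chromosomes, kinetochores attach them to the spindle, the checkpoint delays separation until every chromosome is attached, and Cdc20 then activates the ubiquitin ligase that ends mitosis. Promoters of many such genes carry a cell cycle genes homology region (CHR), to which the DREAM and MuvB complexes bind, and CCAAT boxes, to which NF-Y binds. PD1 and Lag3 are inhibitory receptors on activated T cells, and the comparison addressed whether blocking either of them altered the transcripts of cells responding to the second peptide.

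Promoter windows from RefSeq (GRCm38.p6, 250 bases before to 50 bases after the start site) were found for 37 of the 44 genes, in 40 windows. Windows of a kinase, a checkpoint target, a DNA topoisomerase, and a passenger protein are shown because they range from several copies of these elements to none. Cdk1 lies at chr10:69352863-69353162 on the minus strand, Plk1 at chr7:122159185-122159484 on the plus strand, Cdc20 at chr4:118437294-118437593 on the minus strand, Top2a at chr11:99024140-99024439 on the minus strand, and Birc5 at chr11:117848987-117849286 on the plus strand. Each is printed 5′ to 3′ along its gene, and capitals mark the CHR core (TTTGAA or TTCGAA) and the CCAAT box on either strand, so that TTCAAA and ATTGG are the same elements read from the other strand.
Cdk1: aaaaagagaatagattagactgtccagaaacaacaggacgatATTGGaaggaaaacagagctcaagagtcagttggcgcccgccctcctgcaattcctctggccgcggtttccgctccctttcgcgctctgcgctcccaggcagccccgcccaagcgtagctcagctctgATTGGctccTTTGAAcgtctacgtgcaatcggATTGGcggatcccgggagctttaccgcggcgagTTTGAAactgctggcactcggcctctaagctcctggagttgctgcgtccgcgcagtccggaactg
Plk1: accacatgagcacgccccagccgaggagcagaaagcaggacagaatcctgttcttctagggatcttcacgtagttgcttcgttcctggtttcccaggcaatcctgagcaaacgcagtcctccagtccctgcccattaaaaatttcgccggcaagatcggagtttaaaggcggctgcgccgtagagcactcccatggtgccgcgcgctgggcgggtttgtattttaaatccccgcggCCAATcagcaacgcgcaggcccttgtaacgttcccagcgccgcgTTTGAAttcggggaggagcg
Cdc20: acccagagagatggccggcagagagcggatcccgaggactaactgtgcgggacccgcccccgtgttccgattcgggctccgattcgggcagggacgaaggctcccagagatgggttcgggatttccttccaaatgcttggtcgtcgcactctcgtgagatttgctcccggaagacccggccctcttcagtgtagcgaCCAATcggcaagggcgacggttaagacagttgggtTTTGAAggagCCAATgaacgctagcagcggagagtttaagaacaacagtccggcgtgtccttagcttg
Top2a: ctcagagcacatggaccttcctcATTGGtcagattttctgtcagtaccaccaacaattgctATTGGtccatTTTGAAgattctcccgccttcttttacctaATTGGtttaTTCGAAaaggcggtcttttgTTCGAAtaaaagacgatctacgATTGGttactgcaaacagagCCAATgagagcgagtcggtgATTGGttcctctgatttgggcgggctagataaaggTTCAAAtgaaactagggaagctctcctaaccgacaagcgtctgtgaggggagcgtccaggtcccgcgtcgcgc
Birc5: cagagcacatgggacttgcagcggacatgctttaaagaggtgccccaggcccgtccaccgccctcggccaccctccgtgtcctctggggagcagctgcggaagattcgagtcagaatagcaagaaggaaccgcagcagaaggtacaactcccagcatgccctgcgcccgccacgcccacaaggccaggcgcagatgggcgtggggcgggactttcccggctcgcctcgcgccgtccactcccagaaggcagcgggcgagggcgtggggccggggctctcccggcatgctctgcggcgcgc

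The CHR core was present in 33 of the 40 windows (82.5%), compared with 19.2% of all 32851 promoter windows of the same length and 14.2% of the 10793 windows of tested genes. A CCAAT box was present in 32 of 40 (80.0%), compared with 37.4% of all windows. Both were present in 30 of 40 (75.0%), compared with 7.52% of all windows and 5.87% of those of tested genes. Position differed as well as presence. Of the 33 windows with a CHR core, 29 (87.9%) held one within 50 bases of the start site, while 27.6% of the 6316 CHR-bearing windows in the whole table did. In all 30 windows with both elements a CCAAT box began before the last CHR core, as it did in 53.3% of the 2472 windows with both in the whole table. Windows with several copies of an element meet these position rules more easily, and copy number was not adjusted for. Bub3, Ect2, and Prc1 entered these counts with more than 1 window. In Cdc20 the CHR core began 18 bases before the start site between CCAAT boxes at 53 and 8 bases before it, and in Plk1 it began 31 bases after the start site with 1 CCAAT box 14 bases before it. Top2a held 4 CHR cores and 6 CCAAT boxes. The Birc5 window held neither element in these letters, nor did those of Mad2l1, Ncaph, Nuf2, and Nusap1. These matches describe the letters in the windows and do not show that a factor was bound in these cells.

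**Figure D1:**
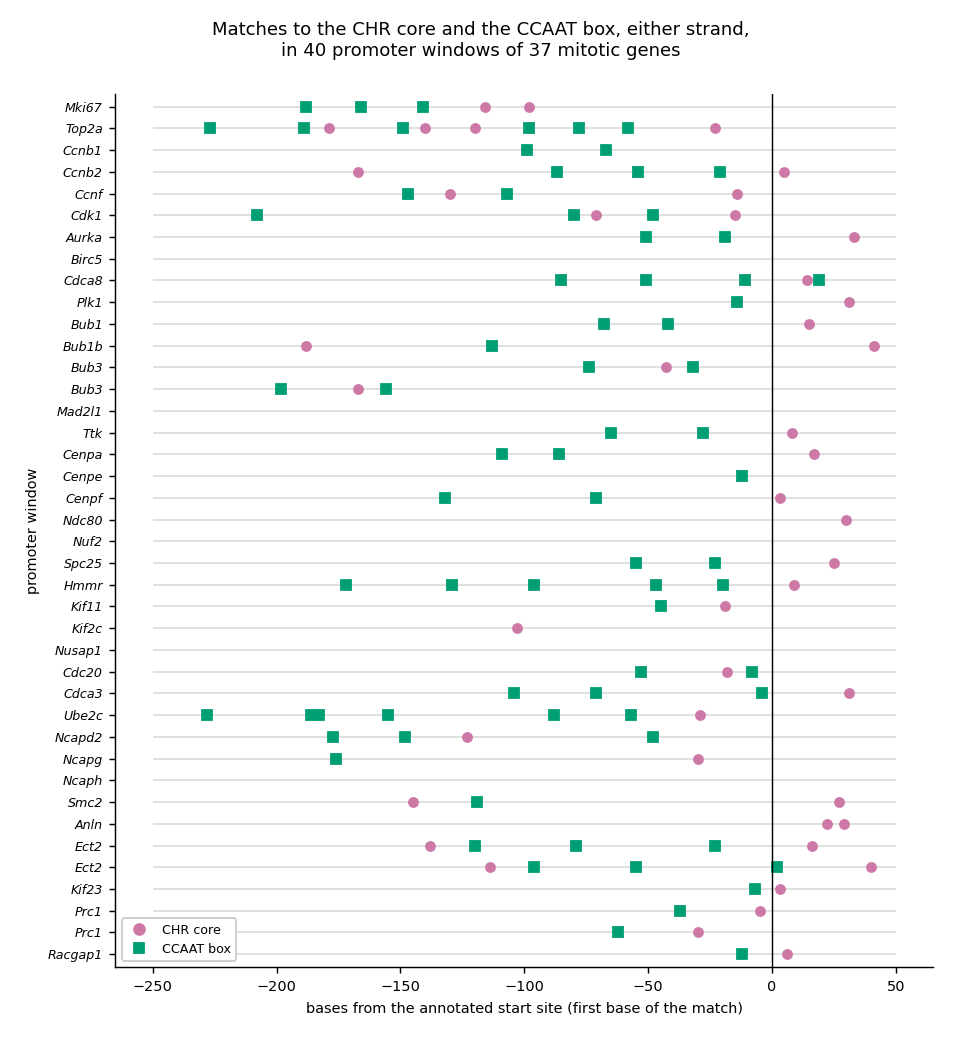
Position of each CHR core (circles) and CCAAT box (squares) in the 40 promoter windows of 37 mitotic genes, in bases from the annotated start site (x axis), with 1 line per window grouped by role. CHR cores gather near the start site, within 50 bases of it in 29 of the 33 windows that hold one, and the CCAAT boxes lie mostly before them.

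Total counts ran from 2107715 to 2648920 per sample, so that 3 reads corresponded to between 1.11 and 1.44 CPM (reads scaled to the library size, with TMM factors). Summed over 7 T cell markers, levels were between 1381 and 1667 CPM in every sample. Summed over 9 erythroid markers they were between 21.1 and 52.3 CPM, with Klf1 and Car1 at 0 reads in all 6 samples, and over 5 neutrophil markers between 1.48 and 19.7 CPM, with Ly6g, Elane, and Mpo at 0. Lag3 itself was counted at no more than 7.59 CPM in any sample and Pdcd1, which encodes PD1, at 12.3 to 17.1 CPM. Nr4a3 was counted at 51.4 and 45.1 CPM with isotype, 29.7 and 29.4 CPM with anti-PD1, and 40.9 and 36.8 CPM with anti-Lag3. Its log2 fold change with anti-PD1 was −0.70 ± 0.232 (SE, n = 2 per group, edgeR adjusted p = 0.195). The study reported more blue Timer protein with anti-PD1, a measure of the reporter protein and not of this transcript. The mitotic genes were well covered. Their median coefficient of variation between replicates beyond counting error was 0.0982 in the fit, against 0.109 for the 4966 genes at or above the lowest of their mean levels.

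None of the 44 genes passed the threshold (adjusted p of 0.05 over all genes tested, edgeR quasi-likelihood test) between anti-PD1 and isotype, where 107 genes (0.901%) did so. None passed between anti-Lag3 and isotype, where 5 genes (0.0421%) did, and none between anti-PD1 and anti-Lag3, where 36 genes (0.303%) did. DESeq2 and limma-voom called none of the 44 in any of the 3 comparisons either. Between anti-PD1 and isotype, 0 of the 44 genes were higher and 6 were lower at an unadjusted p under 0.05, where 4.3% and 3.81% of all genes were. DESeq2 gave 0 and 2 of the 44 genes, where it gave 2.2% and 1.88% of all genes, and limma-voom gave 0 and 7, where it gave 4.18% and 3.56%. Between anti-Lag3 and isotype, 2 were higher and 4 lower, where 2.99% and 2.97% of all genes were. DESeq2 gave 1 and 4, against 1.13% and 1.21% of all genes, and limma-voom 2 and 5, against 2.71% and 3.17%. Between anti-PD1 and anti-Lag3, 0 were higher and 2 lower, where 3.5% and 3.03% of all genes were. DESeq2 gave 0 and 1, against 1.58% and 1.22% of all genes, and limma-voom 0 and 3, against 3.74% and 2.8%. Of the 4966 genes at or above the lowest mean level of the 44, 261 were higher and 256 lower between anti-PD1 and isotype (edgeR). By the same rule 173 and 173 were between anti-Lag3 and isotype, and 223 and 179 between anti-PD1 and anti-Lag3.

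With each gene's spread estimated partly from all genes tested, the intervals were narrow enough to bound the differences. Between anti-PD1 and isotype, the 95% interval of the fold change lay within 2-fold in either direction for 43 of the 44 genes and within 1.5-fold for 33. The exception at 2-fold was Anln, an actin-binding scaffold of the cleavage furrow and the gene with the fewest reads, whose interval reached down to 0.490-fold. Between anti-Lag3 and isotype all 44 intervals lay within 2-fold and 34 within 1.5-fold, and between anti-PD1 and anti-Lag3 all 44 and 31. Few lay within 1.25-fold (5, 4, and 9 genes), so differences of that size were not resolved for most of the genes. The standard error of the log2 fold change between anti-PD1 and isotype ran from 0.0835 for Top2a to 0.314 for Anln.

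**Figure D2:**
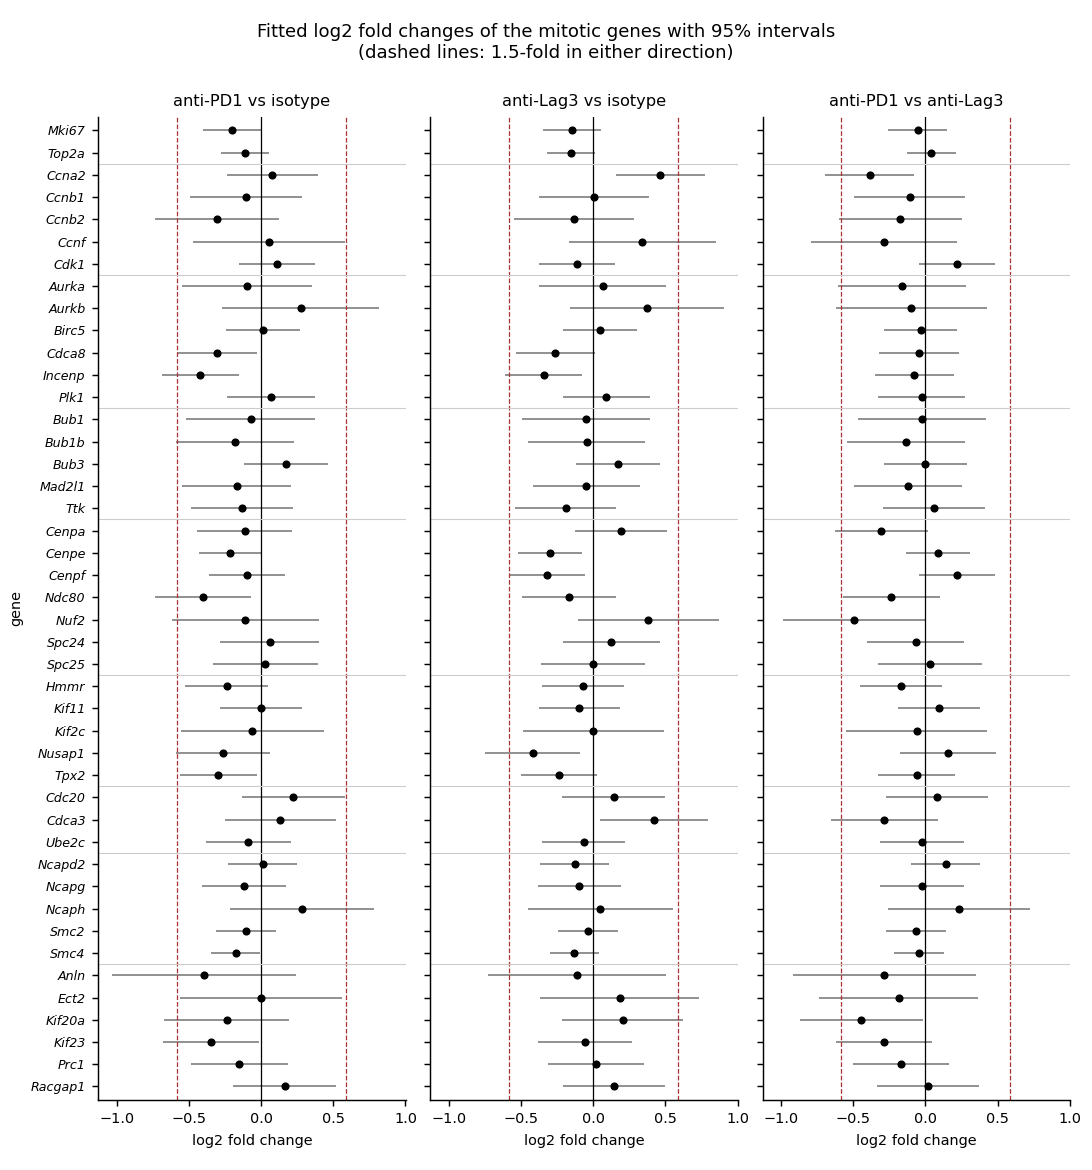
Fitted log2 fold change (points) and its 95% interval (lines) for the 44 genes in each of the 3 comparisons, grouped by role; dashed lines mark 1.5-fold. The intervals of 33, 34, and 31 genes stay inside the dashed lines, and none of the points passed the threshold after adjustment.

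Mki67 and Top2a are the usual markers of cycling cells. Mki67 (GRCm38 chromosome 7, 135689784 to 135716361, minus strand), which encodes a protein coating mitotic chromosomes, was counted at 764 and 619.9 CPM in the isotype samples, 589.8 and 613 CPM with anti-PD1, and 605 and 643 CPM with anti-Lag3. Both anti-PD1 samples were below both isotype samples, while the anti-Lag3 samples overlapped with them. The log2 fold change with anti-PD1 was −0.20 ± 0.0999 (SE, n = 2 per group, edgeR adjusted p = 0.615) and with anti-Lag3 −0.15 ± 0.0995 (edgeR adjusted p = 0.911), and neither passed the test. The anti-PD1 difference was −0.04 without isotype replicate 1 and −0.35 without isotype replicate 2. Top2a (GRCm38 chromosome 11, 98992943 to 99024189, minus strand), the topoisomerase that untangles sister chromatids, was counted at 1572 and 1588 CPM with isotype, 1420 and 1504 CPM with anti-PD1, and 1321 and 1521 CPM with anti-Lag3. All 4 antibody samples were below both isotype samples, with log2 fold changes of −0.11 ± 0.0835 and −0.15 ± 0.0834 (SE, n = 2 per group, edgeR adjusted p = 0.834 and 0.847). The 95% interval for anti-PD1 held Top2a between 0.823-fold and 1.04-fold of isotype.

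Of the cyclins and their kinase, Cdk1 was counted at 172 and 176 CPM with isotype, 197 and 178 CPM with anti-PD1, and 150.5 and 170.5 CPM with anti-Lag3. Its anti-PD1 samples were both above and its anti-Lag3 samples both below the isotype samples, with log2 fold changes of 0.11 ± 0.130 and −0.11 ± 0.131 (SE), each smaller than its error. Ccnb1, the cyclin that activates Cdk1 for mitosis, stood at 66.5 and 66.8 CPM with isotype, 69.0 and 55.6 CPM with anti-PD1, and 56.9 and 76.5 CPM with anti-Lag3. The 2 samples of each antibody group lay on either side of the isotype samples. Ccna2 (GRCm38 chromosome 3, 36564865 to 36572150, minus strand), the cyclin of S and G2 phase, was counted at 109.8 and 95.4 CPM with isotype, 109 and 107 CPM with anti-PD1, and 121 and 162 CPM with anti-Lag3. Both anti-Lag3 samples were above the other 4, and the replicates of anti-Lag3 were farther apart than those of the other groups. Ccna2 ranked first of the 44 genes by the test between anti-Lag3 and isotype (log2 fold change 0.47 ± 0.153 (SE, n = 2 per group), edgeR adjusted p = 0.641) and between anti-PD1 and anti-Lag3 (−0.39 ± 0.153 (SE), edgeR adjusted p = 0.585). Without anti-Lag3 replicate 2 these Ccna2 differences were 0.24 and −0.17. Exosc9 lies on the opposite strand and overlaps Ccna2; it had 1043 reads over the 6 samples against 1681 for Ccna2, and the strand setting of the counting is not given in the sources used here. Exosc9 was counted at 65.0 and 76.5 CPM with isotype and 86.9 and 65.0 CPM with anti-Lag3. Ccnb2 and Ccnf did not pass the test in any comparison.

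Among the mitotic kinases and the chromosomal passenger complex, Incenp had the largest fitted difference between anti-PD1 and isotype. Incenp (GRCm38 chromosome 19, 9872296 to 9899551, minus strand), the scaffold that holds Aurora B at the inner centromere, was counted at 273 and 219 CPM with isotype, 177 and 190.1 CPM with anti-PD1, and 169.9 and 217 CPM with anti-Lag3. All 4 antibody samples were below both isotype samples, although anti-Lag3 replicate 2 and isotype replicate 2 were nearly level. It ranked first of the 44 genes between anti-PD1 and isotype (log2 fold change −0.42 ± 0.133 (SE, n = 2 per group), edgeR adjusted p = 0.163), with a 95% interval of 0.621-fold to 0.901-fold. Over 17 alternative fits its adjusted p was between 0.0531 and 0.764. With anti-Lag3 the log2 fold change was −0.34 ± 0.132 (SE, edgeR adjusted p = 0.690). Without isotype replicate 1 the Incenp differences were −0.25 with anti-PD1 and −0.17 with anti-Lag3, and the latter was −0.18 without anti-Lag3 replicate 1 and −0.52 without anti-Lag3 replicate 2. Cdca8, another subunit of the complex, was counted at 173 and 156 CPM with isotype, 129.9 and 135 CPM with anti-PD1, and 129.5 and 144 CPM with anti-Lag3. Its 4 antibody samples were also below both isotype samples, with a log2 fold change of −0.31 ± 0.137 (SE) for anti-PD1 (edgeR adjusted p = 0.529). The other members of the complex did not share this order. Birc5 stood at 226 and 191 CPM with isotype, 199 and 220.4 CPM with anti-PD1, and 203 and 227 CPM with anti-Lag3, and its groups overlapped. Cdca8 shares its locus with 9930104L06Rik on the other strand, which had 128 reads against 2049. Aurkb, the kinase of the complex, was counted at 30.6 and 21.3 CPM with isotype, 29.7 and 32.7 CPM with anti-PD1, and 29.5 and 37.1 CPM with anti-Lag3, so that isotype replicate 2 was the lowest of the 6. Its log2 fold changes of 0.28 ± 0.269 and 0.37 ± 0.264 (SE) had the highest upper bounds of all 44 genes, 1.76-fold and 1.87-fold. Without isotype replicate 1 the Aurkb differences were 0.55 and 0.66, without isotype replicate 2 they were 0.03 and 0.12, and without anti-Lag3 replicate 2 the second was 0.20. Plk1, which acts from mitotic entry to cytokinesis, stood at 124 and 111 CPM with isotype, 132 and 114 CPM with anti-PD1, and 112 and 138 CPM with anti-Lag3, with overlap between all groups.

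At the centromere and kinetochore, 7 genes were measured. Ndc80, the microtubule-binding subunit of the outer kinetochore, was counted at 93.8 and 101 CPM with isotype, 75.7 and 72.4 CPM with anti-PD1, and 92.8 and 81.7 CPM with anti-Lag3. Both anti-PD1 samples were below the other 4, with a log2 fold change from isotype of −0.40 ± 0.165 (SE, edgeR adjusted p = 0.456). Its direct partner Nuf2 stood at 32.0 and 29.4 CPM with isotype, 27.8 and 29.0 CPM with anti-PD1, and 37.5 and 42.3 CPM with anti-Lag3, and the anti-Lag3 samples were above the other 4. The difference of Nuf2 between anti-PD1 and anti-Lag3 was −0.49 ± 0.244 (SE, edgeR adjusted p = 0.763), with the lowest bound in that comparison, 0.505-fold. Spc24 and Spc25, the remaining subunits of this complex, lay between 70.8 and 87.7 CPM and between 65.0 and 75.7 CPM over all 6 samples. Cenpa, the centromeric histone H3 variant, was counted at 91.0 and 93.0 CPM with isotype, 81.5 and 88.3 CPM with anti-PD1, and 95.7 and 114 CPM with anti-Lag3, an order without overlap between the 3 groups. Its difference between anti-PD1 and anti-Lag3 was −0.31 ± 0.159 (SE, edgeR adjusted p = 0.784), and −0.18 without anti-Lag3 replicate 2. Cenpe, a kinetochore motor, was counted at 458 and 391 CPM with isotype, 352 and 379.9 CPM with anti-PD1, and 332 and 357 CPM with anti-Lag3. Cenpf, a large kinetochore protein of G2 and mitosis, stood at 283 and 203 CPM with isotype, 227 and 225 CPM with anti-PD1, and 196 and 193 CPM with anti-Lag3. For both genes the anti-Lag3 samples were below the isotype samples, with log2 fold changes of −0.30 ± 0.108 and −0.32 ± 0.131 (SE, edgeR adjusted p = 0.673 and 0.727). Without isotype replicate 1, the Cenpe difference was −0.17 and the Cenpf difference −0.05, and without isotype replicate 2 that of Cenpf was −0.55.

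The 5 checkpoint genes (Bub1, Bub1b, Bub3, Mad2l1, and Ttk), which hold back Cdc20 until chromosomes are attached, gave no p under 0.05 in any comparison. Their log2 fold changes ran from −0.18 to 0.17 with anti-PD1 and from −0.19 to 0.17 with anti-Lag3. Of the 5 spindle and motor genes, Tpx2, which activates Aurora A and nucleates spindle microtubules, was counted at 213 and 179.5 CPM with isotype, 164 and 156 CPM with anti-PD1, and 162 and 171 CPM with anti-Lag3. Its antibody samples were all below the isotype samples (log2 fold change with anti-PD1 −0.30 ± 0.131 (SE), edgeR adjusted p = 0.513, and −0.17 without isotype replicate 1). Nusap1, a microtubule-bundling protein of the spindle, stood at 127 and 101 CPM with isotype, 84.8 and 104 CPM with anti-PD1, and 82.2 and 87.7 CPM with anti-Lag3. Only its anti-Lag3 samples were both below isotype (−0.42 ± 0.162 (SE), edgeR adjusted p = 0.690, and −0.23 without isotype replicate 1), and Nusap1 overlaps Oip5 on the other strand, which had 214 reads. Hmmr, Kif11, and Kif2c did not reach an unadjusted p under 0.05.

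Cdc20, which opens mitotic exit, was counted at 90.0 and 104 CPM with isotype, 112 and 115 CPM with anti-PD1, and 78.0 and 135 CPM with anti-Lag3. The 2 anti-Lag3 samples were the lowest and the highest of all 6, and this was the widest replicate difference among the 44 genes in that group (1.72-fold). Cdca3, which helps mark Wee1 for destruction at mitotic entry, was named after its values were seen. It was counted at 61.3 and 51.5 CPM with isotype, 65.6 and 58.1 CPM with anti-PD1, and 70.8 and 79.5 CPM with anti-Lag3, whose samples were both above the other 4 (log2 fold change from isotype 0.42 ± 0.185 (SE), edgeR adjusted p = 0.787). The log2 fold change of Cdc20 with anti-PD1 was 0.22 ± 0.177 (SE, edgeR adjusted p = 0.854), and 0.13 without isotype replicate 1. Cdc20 overlaps Elovl1 on the other strand, which had 619 reads against 1512 for Cdc20. The 5 condensin genes, which compact the chromosomes, were between −0.17 and 0.28 with anti-PD1 on the log2 scale and between −0.13 and 0.05 with anti-Lag3. The −0.17 was that of Smc4, the sixth gene with an unadjusted p under 0.05 in the first comparison. In cytokinesis, Kif23, a motor of the central spindle, was counted at 108 and 97.4 CPM with isotype, 91.0 and 70.7 CPM with anti-PD1, and 92.4 and 104 CPM with anti-Lag3. Its anti-PD1 samples were below the other 4 (log2 fold change from isotype −0.35 ± 0.165 (SE), edgeR adjusted p = 0.581). The Kif23 difference was −0.54 without anti-PD1 replicate 1 and −0.17 without anti-PD1 replicate 2. Kif20a, a motor that brings passenger proteins to the midzone, stood at 45.2 and 53.9 CPM with isotype, 42.2 and 42.1 CPM with anti-PD1, and 48.5 and 65.7 CPM with anti-Lag3. The anti-PD1 samples were again below the other 4, and the difference from anti-Lag3 was −0.44 ± 0.211 (SE, edgeR adjusted p = 0.745), and −0.21 without anti-Lag3 replicate 2. Kif20a overlaps Cdc23, which had 514 reads against 713 for Kif20a.

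**Figure D3:**
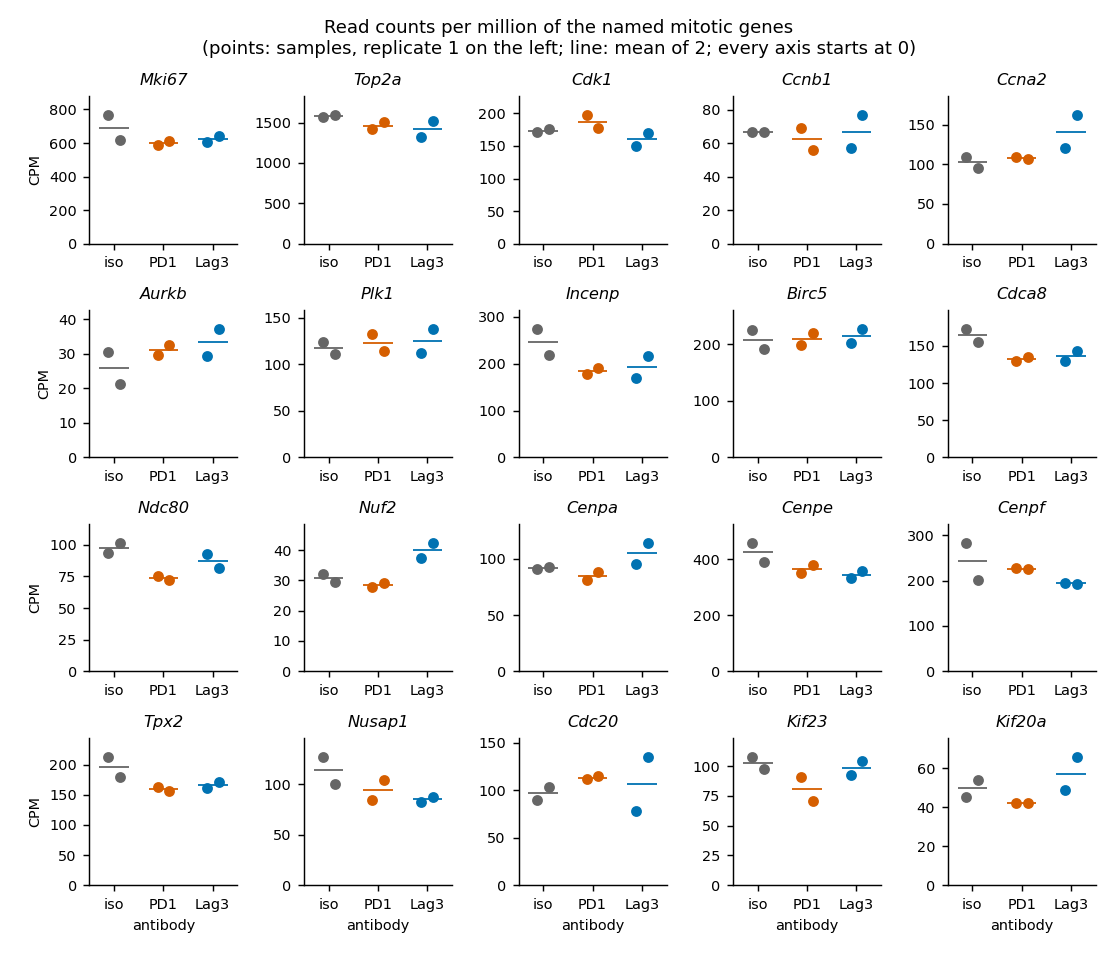
CPM of 20 mitotic genes in each sample (points, replicate 1 on the left) with the mean of the 2 samples (line), by antibody group, on axes that start at 0. The points of the 3 groups lie close together for most genes, as for Birc5 and Plk1, and the anti-PD1 points of Incenp (177 and 190.1 CPM) and Ndc80 (75.7 and 72.4 CPM) lie below both isotype points.

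Across the 44 genes, the median log2 fold change was −0.10 between anti-PD1 and isotype (15 genes higher, 29 lower), −0.05 between anti-Lag3 and isotype (20 and 24), and −0.06 between anti-PD1 and anti-Lag3 (12 and 32), while the medians of all genes tested were within 0.01 of 0. The first 2 comparisons share the isotype samples. Sizes of change were ordinary for genes of this abundance. The median absolute log2 fold change of the 44 genes was 0.13, 0.13, and 0.10 in the 3 comparisons, against 0.14, 0.13, and 0.13 for the 4966 genes at or above the lowest of their mean levels. Both anti-PD1 samples lay above both isotype samples for 3 of the 44 genes (Cdc20, Bub3, and Cdk1) and below for 15, where 19.2% and 18.2% of all genes did. For anti-Lag3 and isotype these numbers were 5 (Ccna2, Cdca3, Nuf2, Ccnf, and Cenpa) and 13, where 17.3% of all genes lay in each direction. For anti-PD1 and anti-Lag3 they were 4 (Cdk1, Cenpf, Ncapd2, and Kif11) and 10, where 18.2% and 17.7% did.

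The 44 genes also differed between the replicates of a group. Isotype replicate 1 held the highest value of the 6 samples for 16 of the 44 genes and anti-Lag3 replicate 2 for 17, whereas isotype replicate 2 was the highest for 8, anti-PD1 replicate 1 for 3, and neither anti-PD1 replicate 2 nor anti-Lag3 replicate 1 for any. Summed over the genes, levels were 8875 and 8230 CPM with isotype, 7733 and 7984 CPM with anti-PD1, and 7590 and 8390 CPM with anti-Lag3, so that the highest anti-Lag3 sample exceeded the lower isotype sample. Within the anti-Lag3 group 36 of 44 genes were higher in replicate 2 than in replicate 1 (median difference 0.17 on the log2 scale), and within the isotype group 15 were (median −0.15), while 50.4% and 50.6% of all genes were. Within the anti-PD1 group it was 19 genes (median −0.02). The median absolute difference between replicates was 0.20 with isotype, 0.12 with anti-PD1, and 0.19 with anti-Lag3, compared with 0.13, 0.13, and 0.10 for the differences between group means. A difference between 2 single samples is expected to scatter more than one between means of 2, and the 2 sets of values are given side by side for scale only. Over all genes tested, the values were 0.31, 0.29, and 0.30 between replicates and 0.24, 0.23, and 0.23 between group means, so the larger replicate values were not particular to the 44 genes. Without isotype replicate 1, the median between anti-PD1 and isotype was −0.04 and 1 gene rather than 6 was lower at an unadjusted p under 0.05, and between anti-Lag3 and isotype the median was 0.03 and 0 genes rather than 4 were. Without anti-Lag3 replicate 1 the anti-Lag3 median was 0.03, and with library size alone as the scaling it was 0.01, so its sign was not fixed by these data. The anti-PD1 median stayed below 0 in all 17 alternative fits.

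**Figure D4:**
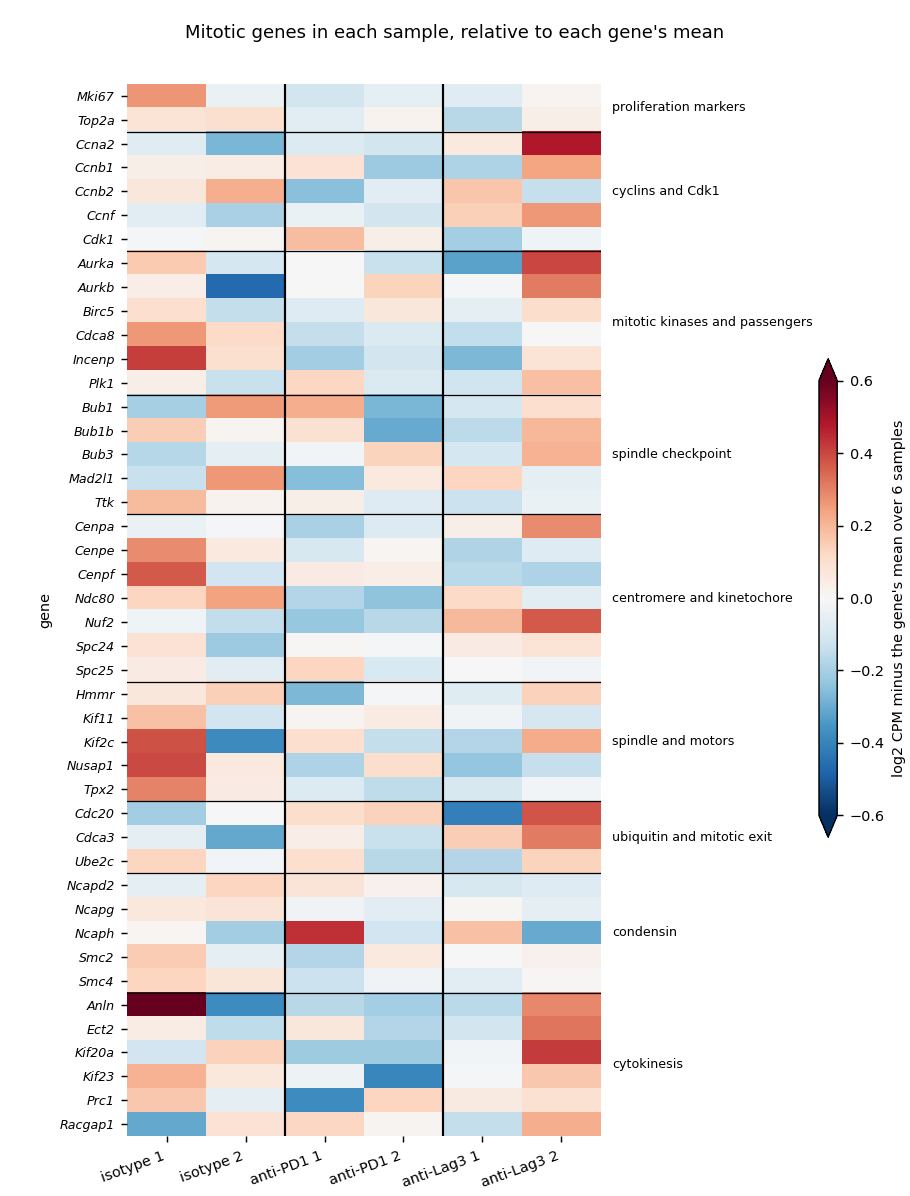
Level of each of the 44 genes (rows, grouped by role) in each of the 6 samples (columns) as log2 CPM minus the gene's mean over the 6 samples, red above and blue below the mean. The columns of isotype replicate 1 and anti-Lag3 replicate 2 are mostly red, with 31 and 30 of 44 genes above their mean, and their replicates are not, with 21 and 12.

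**Figure D5:**
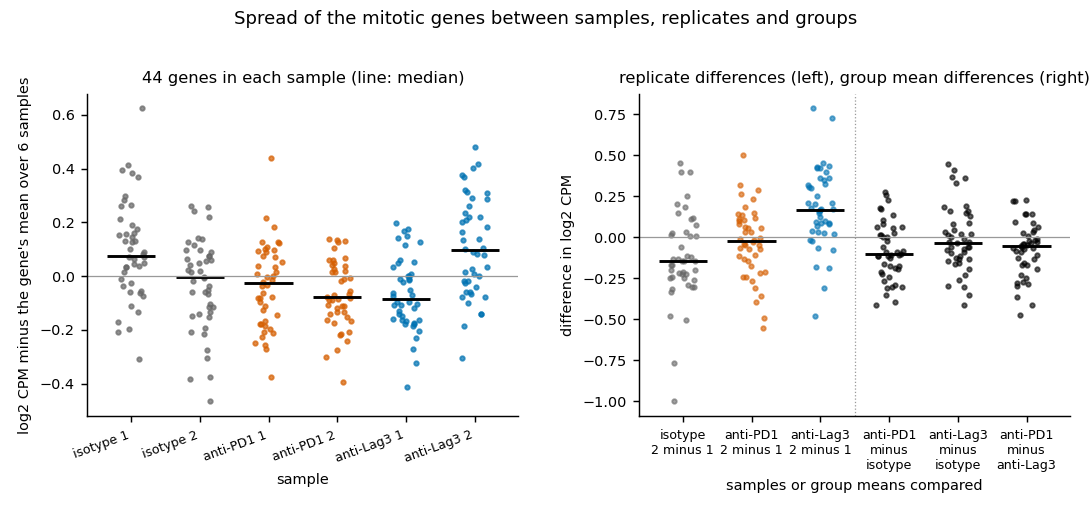
Left, the 44 genes in each sample as log2 CPM minus the gene's mean over 6 samples, with the median as a line. Right, differences between replicates (colored) and between group means (black) on the log2 scale; the replicate differences, with medians of −0.15 in isotype and 0.17 in anti-Lag3, have median sizes of 0.20, 0.12, and 0.19, and the group differences 0.13, 0.13, and 0.10.

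Markers of other cells in the spleen were also unevenly distributed. The summed level of 7 B cell markers was 23.1 and 20.1 CPM in the isotype samples against 5.06 to 8.17 CPM in the 4 antibody samples. These sums rested on few reads, 49 and 50 against 12 to 21. For 7 macrophage markers it was 56.5 and 49.1 CPM against 15.8 to 30.6 CPM, and for the 2 CD8 T cell markers 54.6 and 48.3 CPM against 29.8 to 34.5 CPM. For the 5 neutrophil markers the sum was 7.53 and 19.7 CPM against 1.48 to 6.70 CPM, on 16 and 49 reads against 4 to 14. The sum of 5 plasma cell markers went the other way, at 31.1 and 34.2 CPM against 34.1 to 57.2 CPM. Of the 7 T cell markers, 5 were fitted lower with anti-PD1 than with isotype (median log2 fold change −0.32), although none of the 7 passed the threshold (edgeR). Cd3g, Cd3e, Cd3d, Cd4, and Lck were at −0.42, −0.38, −0.34, −0.32, and −0.23, while Trac and Cd28 were at 0.07 and 0.11. With anti-Lag3 the median of the T cell markers was 0.05. The levels of the B cell, macrophage, neutrophil, and CD8 T cell markers moved with the genes that were lower in both antibody groups, such as Incenp, Cdca8, and Tpx2. Those of the 5 T cell markers fitted lower moved with the genes lower with anti-PD1. Their part in those differences was not tested. In sorted populations, fewer cycling cells and less mitotic RNA per cycling cell cannot be told apart.

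Genes of neighboring steps of the cell cycle were tested in the same fit. Of 113 other mitotic genes (cohesin, further kinetochore proteins, and kinases among them), 0 passed the threshold in any comparison under the edgeR test. At an unadjusted p under 0.05, 1 was higher and 2 were lower with anti-PD1 and 3 were higher and 7 lower with anti-Lag3, with medians of −0.05 and −0.04. Of all genes, 4.3% were higher and 3.81% lower with anti-PD1 and 2.99% and 2.97% with anti-Lag3 by the same rule, so that the 7 lower genes with anti-Lag3 made up 6.19% of the list. None of 45 DNA replication genes passed either (unadjusted, 2 higher and 0 lower with anti-PD1, 2 higher and 1 lower with anti-Lag3), and their medians were 0.03 and 0.04. None of 24 tested regulators of G1 passed, with 1 higher and 1 lower at an unadjusted p under 0.05 in each comparison with isotype. The 599 tested genes with both a CHR core and a CCAAT box in a promoter window had medians of −0.02 with anti-PD1 and −0.01 with anti-Lag3, and 8 of them passed the threshold between anti-PD1 and isotype, where 0.901% of all genes did, 7 higher and 1 lower, none of them among the 44 genes.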

How the data were processed

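CD4+ T cells were sorted on Timer expression, and the authors made Lexogen QuantSeq 3′ libraries (25 ng of RNA per the labels), sequenced them on an Illumina instrument, trimmed reads, aligned them to GRCm38 with STAR 2.5.2a, and counted them per gene with HTSeq. The deposited values used here are raw whole-number counts; the deposited table of rlog values was not used here. The annotation release and strand setting of the counting are not given in the sources used here. The study's methods state that a further batch of 3 samples was left out after it stood apart; it was not analysed here.

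Groups came from the labels, 2 samples in each. Genes with at least 10 reads over 6 samples were kept, and all samples were fitted together in edgeR 4.0.16 (R 4.3.3; TMM, quasi-likelihood test, no covariate), with Benjamini-Hochberg adjustment over all genes tested and a threshold of 0.05. Standard errors and 95% intervals are Wald estimates from that fit. They and the p-values rest largely on spread shared across genes (median of 37.2 prior degrees of freedom), since each group held 2 samples. CPM use TMM-scaled library sizes. DESeq2 1.42.0, limma-voom (limma 3.58.1), other scalings and filters, and leaving out each sample were alternatives. Replicates were compared by a chi-square test of their counts over genes, which gave 2.65 to 3.29 per degree of freedom, above sampling noise. That cannot show whether they came from separate mice, and each was counted as a sample as labeled. The fit was tested on simulated counts with the same spread for every gene and each gene drawn independently. That is a simpler case than these data and did not test genes that shift together in a sample. Totals were 2107715 to 2648920 counts per sample, and precision falls with a gene's reads. Names and overlaps come from GENCODE annotation of GRCm38 (47224 of 47643 identifiers named), promoter sequences from RefSeq GRCm38.p6. In each comparison the 5 genes with the smallest p were named, and 8 others (Mki67, Top2a, Cdk1, Ccnb1, Aurkb, Plk1, Cdc20, and Birc5) whatever their values. The genes and gene lists were chosen with earlier results of these data known.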

Additional observations from a re-analysis of the deposited data

How the results depend on the processing

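None of the 44 mitotic genes and none of the 113 other mitotic genes passed the threshold in any comparison under any of the alternatives. These were another tool, scaling, filter, or set of samples, or a sample left out. A looser threshold of 0.1 was applied to the main fit only, where none of these genes passed it. Adjusted p under 0.1 did occur in other fits. For Incenp between anti-PD1 and isotype, the edgeR adjusted p was 0.072 with only the samples of the comparison and 0.086 with a filter of 1 read. The median of the 44 genes moved by less than the spread between replicates (SD 0.0842 on the log2 scale) in 50 of 51 alternative values. The exception was the median between anti-PD1 and anti-Lag3, which was between −0.143 and 0.0341 with each sample left out in turn and 0.0341 without anti-Lag3 replicate 2. That SD is larger than the main medians of −0.05 (anti-Lag3 and isotype) and −0.06 (anti-PD1 and anti-Lag3), so a change of sign can lie within it. The median between anti-Lag3 and isotype changed sign in this way, to 0.0312 without anti-Lag3 replicate 1. Counts over all genes were less stable. Between anti-PD1 and isotype, 166 genes passed at a threshold of 0.1, and between 46 and 161 with each sample left out. Between anti-Lag3 and isotype, 1 passed under DESeq2, 0 under edgeR's newer quasi-likelihood method, with the filterByExpr filter, or with the isotype and anti-Lag3 samples fitted alone, 8 with library size alone, 3 without Gm42418 and mitochondrial rRNA genes, 20 with a filter of 1 read, and 0 to 16 with each sample left out. Between anti-PD1 and anti-Lag3, 16 passed under DESeq2, 58 with a filter of 1 read, and 3 to 49 with each sample left out. The causes were not tested.

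Of 663 alternative log2 fold changes of named genes, 641 kept their direction and 22 did not, none of them past the threshold in any fit. Ccnb1 between anti-Lag3 and isotype was −0.00359 under limma-voom. With each sample left out, the ranges that crossed 0 between anti-PD1 and isotype were −0.261 to 0.0488 for Ccnb1, −0.0418 to 0.170 for Plk1, and −0.104 to 0.141 for Birc5. Between anti-Lag3 and isotype they were −0.294 to 0.0192 for Mki67, −0.218 to 0.196 for Ccnb1, −0.0624 to 0.229 for Plk1, −0.307 to 0.474 for Cdc20, and −0.0730 to 0.180 for Birc5. Between anti-PD1 and anti-Lag3 they were −0.0548 to 0.138 for Top2a, −0.299 to 0.116 for Ccnb1, −0.247 to 0.0736 for Aurkb, −0.163 to 0.129 for Plk1, −0.252 to 0.530 for Cdc20, and −0.107 to 0.0417 for Birc5. No strong effect shared by samples of the same replicate number was seen. The correlations of replicate differences between groups over all genes were 0.0206, 0.0182, and −0.0104. They cannot show whether samples of the same number were sorted together. With the replicate block 0 of the 44 genes passed, and 0 and 7 were higher and lower between anti-PD1 and isotype at an unadjusted p under 0.05. Depth limited the genes with the fewest reads, such as Anln, and differences under 1.25-fold were not resolved for most of the 44 genes.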
